A study of Mus musculus with 5 samples.

Results

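The 9 genes described here are Aif1, C1qa, C1qb, C1qc, Tyrobp, Cx3cr1, P2ry12, Tmem119 and Csf1r, which were chosen by name as genes that identify microglia or encode complement C1q. They are 9 of the 34615 gene symbols in the data, and 9 of the 16286 symbols with enough expression to be tested. RNA came from brain microvessels of 5 mice, 3 WT and 2 Ins2-AKITA, all males on a C57BL6 background and between 26 and 38 weeks of age, with 1 library per mouse. Ins2-AKITA mice are heterozygous for a mutation in the insulin 2 gene that kills pancreatic beta cells, so that they become hyperglycemic from a young age, and the WT mice were littermates without it. The fragments had been pulled from dissociated brain tissue with magnetic beads coated with an antibody against PECAM1, an endothelial surface protein. They hold endothelial cells with attached pericytes and astrocyte end-feet, so any microglia were carried along with the vessels rather than purified. The study asked whether prolonged hyperglycemia alters the brain vasculature, and the comparison of the genotypes is followed here for the microglial RNA in these fragments.

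Microglia are the resident macrophages of the brain. They arise from yolk sac progenitors, survive on signals through the receptor CSF1R, and contact neurons and capillaries with motile processes. They are also the main source of C1q in the brain, the recognition molecule that starts the classical complement cascade and that tags synapses and debris for removal. C1q is built from A, B and C chains, encoded by C1qa, C1qb and C1qc.

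No gene of the 9 differed between genotypes past the test's threshold, but they did not vary as one group. The 3 C1q genes each had a lower mean in the Ins2-AKITA group, at 78.9% of the WT mean for C1qa, 75.2% for C1qb and 76.2% for C1qc. The other 6 genes had means in Ins2-AKITA mice between 97.3% (P2ry12) and 132.9% (Tyrobp) of the WT mean. For 5 of them, Csf1r, Cx3cr1, P2ry12, Aif1 and Tmem119, WT replicate 1 had the lowest value of the 5 mice, while its C1q values were among the higher ones. The contrast between C1q and the other genes rested largely on that mouse. Leaving out the lowest WT mouse of a gene lowers its difference by construction. Without that mouse, the difference between genotypes was negative for 8 of the 9 genes. P2ry12 (-0.33 on the log2 scale) and Aif1 (-0.31) were then as low as the C1q genes (-0.32 to -0.31). Levels are given in FPKM, the fragments of a gene divided by its exon length and by the mapped reads of the library.

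The C1q genes lie next to each other on chromosome 4 of mouse assembly NCBIM37, all on the minus strand, within 18675 bases. C1qb (ENSMUSG00000036905, chr4:136436044-136442102) is followed by C1qc (ENSMUSG00000036896, chr4:136445719-136448980) and C1qa (ENSMUSG00000036887, chr4:136451832-136454718), with gaps of 3616 and 2851 bases. Their longest annotated coding transcripts are of like size, 1040 bases with 245 codons for C1qa, 1088 bases with 253 codons for C1qb and 1203 bases with 246 codons for C1qc. In pairwise alignment, with gaps left out, the coding sequences were 61.67% identical for C1qa and C1qb, 63.12% for C1qa and C1qc, and 62.41% for C1qb and C1qc. Over the whole transcripts, untranslated parts included, the longest run of identical bases between any pair was 15.

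The 250 bases before the start of each of these 3 genes are shown, read 5′ to 3′ on the gene's own strand from NCBIM37. Capitals mark GAGGAA or its reverse complement TTCCTC, a form of the purine-rich sequence bound by PU.1, the lineage factor of macrophages and microglia. Other forms of that sequence are not marked. The windows are chr4:136454719-136454968 for C1qa, chr4:136442103-136442352 for C1qb and chr4:136448981-136449230 for C1qc, all on the minus strand.
C1qa: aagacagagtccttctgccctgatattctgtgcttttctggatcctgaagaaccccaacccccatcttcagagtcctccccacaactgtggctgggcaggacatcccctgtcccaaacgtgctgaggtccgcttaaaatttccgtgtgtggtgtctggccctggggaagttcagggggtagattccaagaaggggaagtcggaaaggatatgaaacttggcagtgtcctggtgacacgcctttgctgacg
C1qb: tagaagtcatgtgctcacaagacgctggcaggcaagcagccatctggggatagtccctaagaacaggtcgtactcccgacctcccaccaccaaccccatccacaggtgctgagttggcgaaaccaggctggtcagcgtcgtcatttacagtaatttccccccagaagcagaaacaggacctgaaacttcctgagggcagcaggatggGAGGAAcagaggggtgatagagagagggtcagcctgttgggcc
C1qc: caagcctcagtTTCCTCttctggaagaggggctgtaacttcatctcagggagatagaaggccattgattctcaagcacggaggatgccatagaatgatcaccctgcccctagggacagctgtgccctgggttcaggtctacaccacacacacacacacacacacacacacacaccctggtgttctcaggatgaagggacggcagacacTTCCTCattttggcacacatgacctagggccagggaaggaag

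GAGGAA or its reverse complement stood 1 time in the C1qb window, at positions -43 to -38 from the gene start. It stood 2 times in the C1qc window, at -239 to -234 and -42 to -37. The C1qa window held no exact match, which does not show that it lacks a PU.1 site. Searched on both strands, GAGGAA was in 3 of the 9 windows, those of C1qb, C1qc and Tyrobp, and in 23.1% of the 22334 windows of this length before protein-coding genes.  These matches describe the sequence alone, and no binding was measured.

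All 9 genes had values above 0 in every mouse, although that of Aif1 in WT replicate 1 rested on less than 3 fragments. In WT mice C1qb had the highest level, 46.1 ± 8.87 FPKM (SD, n = 3), followed by C1qc at 31.0 ± 3.47, Csf1r at 26.7 ± 5.02 and C1qa at 25.4 ± 1.925. Cx3cr1 at 16.2 ± 5.53, Tyrobp at 14.6 ± 10.9 and P2ry12 at 11.0 ± 4.79 were in the middle. Tmem119 at 7.43 ± 3.57 and Aif1 at 6.29 ± 3.79 were the lowest. C1qb exceeded C1qc in 5 of 5 mice, and the gap between their WT means was 1.70 times the larger of their SDs. The gap between C1qa and Cx3cr1 was 1.68 times the larger SD and held in 4 of 5 mice. Each of the other neighbouring pairs in this order differed by less than 1 SD. Among all genes tested, the members ranged from the 37.2 percentile of mean FPKM (Aif1) to the 86.2 percentile (C1qb).

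**Figure D1:**
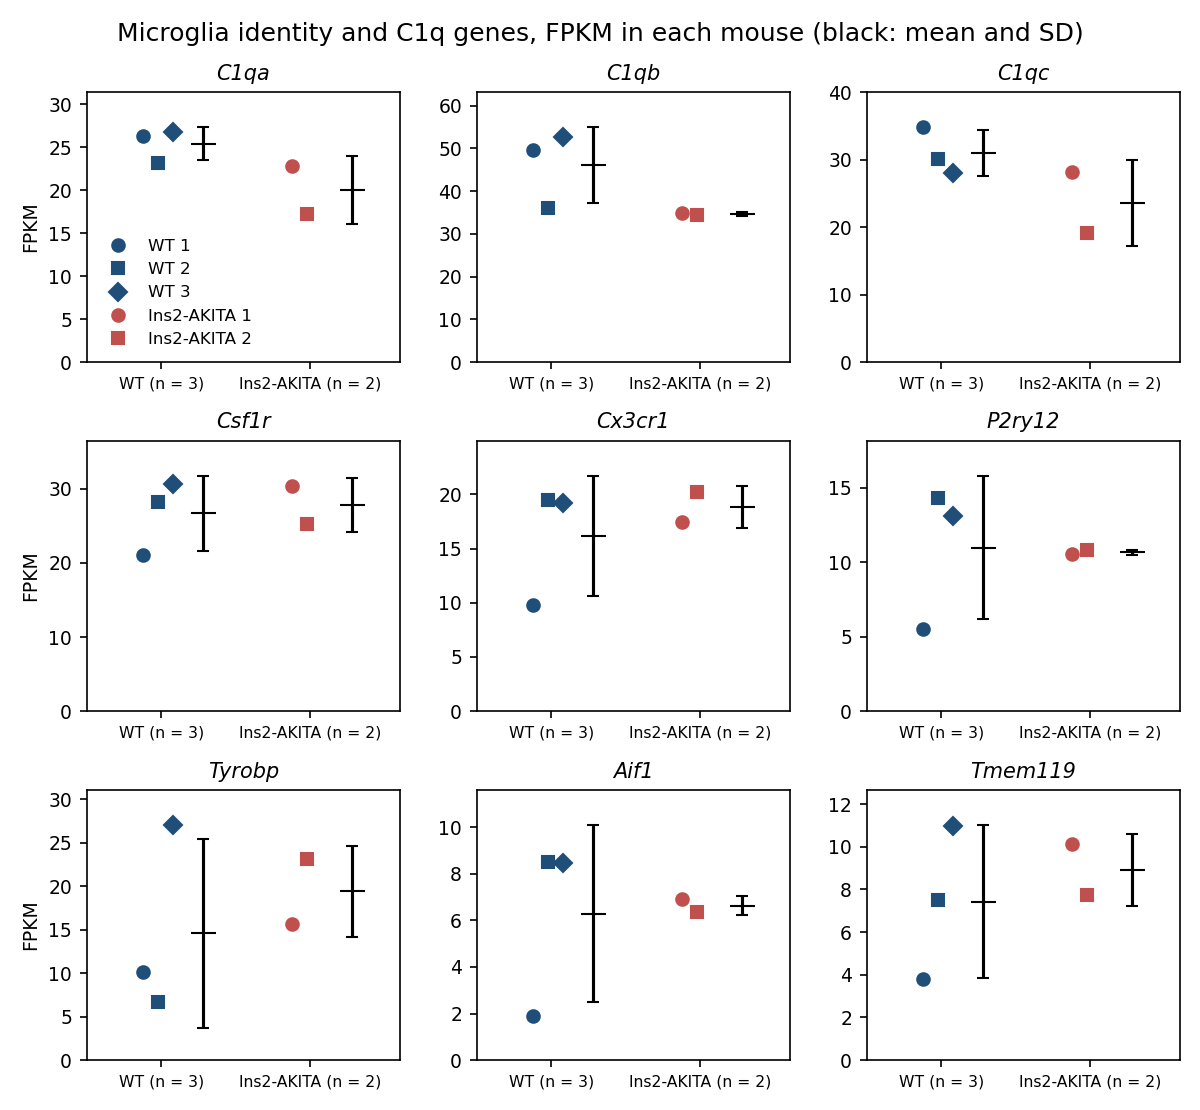
FPKM of each of the 9 genes in each mouse, with a separate axis from 0 for each gene. Points are single mice, and the black bar with whiskers is the group mean and SD (WT n = 3, Ins2-AKITA n = 2). Both Ins2-AKITA mice lie below all WT mice for C1qa and C1qb, and WT replicate 1 is the lowest mouse for Csf1r, Cx3cr1, P2ry12, Aif1 and Tmem119.

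C1qa had 26.3, 23.2 and 26.8 FPKM in WT replicates 1, 2 and 3 and 22.9 and 17.2 FPKM in Ins2-AKITA replicates 1 and 2. Both Ins2-AKITA values were below all WT values, the first by a narrow margin. The difference on the log2(FPKM + 1) scale was -0.34 (limma, SE 0.22, 95% interval -0.86 to 0.18, adjusted p = 0.896, exact two-sided permutation p = 0.2). With 3 mice against 2, that permutation test cannot give a p below 0.1.

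C1qb had 49.7, 36.0 and 52.6 FPKM in the WT mice and 35.0 and 34.4 FPKM in the Ins2-AKITA mice. The Ins2-AKITA values were close to each other and just under WT replicate 2, while the other WT mice were well above. Its log2 difference was -0.38 (limma, SE 0.22, 95% interval -0.93 to 0.16, adjusted p = 0.896, exact permutation p = 0.2). C1qc had 34.8, 30.2 and 28.0 FPKM in the WT mice and 28.1 and 19.1 FPKM in the Ins2-AKITA mice. Here the groups overlapped, since Ins2-AKITA replicate 1 was level with WT replicate 3. The log2 difference of C1qc was -0.40 (limma, SE 0.24, 95% interval -0.97 to 0.18, adjusted p = 0.896, exact permutation p = 0.4).

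Summed over the 3 genes, C1q reached 110.8, 89.4 and 107.4 FPKM in the WT mice and 86.0 and 70.8 FPKM in the Ins2-AKITA mice. The group means were 102.5 ± 11.5 (SD, n = 3) and 78.4 ± 10.7 (SD, n = 2). Ins2-AKITA replicate 2 had the lowest value of all mice for each of the C1q genes. In FPKM, which is a level per length, C1qb was between 1.53 and 1.99 times C1qa in single mice, and C1qc between 1.05 and 1.32 times C1qa. In bulk RNA, fewer microglia and less C1q RNA per cell cannot be told apart.

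Csf1r (ENSMUSG00000024621, chr18:61265226-61291803, plus strand), the receptor for the survival factors CSF1 and IL-34, had 21.1, 28.3 and 30.7 FPKM in the WT mice and 30.5 and 25.3 FPKM in the Ins2-AKITA mice. Both Ins2-AKITA values lay inside the WT range. The log2 difference was 0.07 (limma, SE 0.24, 95% interval -0.50 to 0.65, adjusted p = 0.968, exact permutation p = 1). Csf1r had the smallest ratio of highest to lowest mouse of the 9 genes, 1.46.

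Cx3cr1 (ENSMUSG00000052336, chr9:119957811-119977400, minus strand) encodes the receptor for fractalkine, a signal that neurons send to microglia. It had 9.78, 19.5 and 19.2 FPKM in the WT mice and 17.5 and 20.2 FPKM in the Ins2-AKITA mice. WT replicate 1 was at 50.5% of the mean of the other two WT mice, and the 4 remaining mice were close together. The log2 difference was 0.27 (limma, SE 0.34, 95% interval -0.55 to 1.08, adjusted p = 0.918, exact permutation p = 0.8).

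P2ry12 (ENSMUSG00000036353, chr3:59020193-59066753, minus strand) encodes the purine receptor by which microglial processes follow ATP released at injuries. It had 5.48, 14.3 and 13.1 FPKM in the WT mice and 10.6 and 10.8 FPKM in the Ins2-AKITA mice. WT replicate 1 was again far below the other WT mice, and the Ins2-AKITA mice fell between. The log2 difference was 0.06 (limma, SE 0.42, 95% interval -0.94 to 1.07, adjusted p = 0.987, exact permutation p = 1). P2ry12 lies inside Med12l, which runs on the opposite strand and had 24.4 to 31.9 FPKM, and Csf1r overlaps Hmgxb3 on the opposite strand, which had 8.72 to 11.4 FPKM. Whether the authors' values took the strand into account was not stated, so part of either signal may belong to the overlapping gene.

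The summed level of these 3 receptors was 36.3, 62.1 and 63.0 FPKM in the WT mice and 58.5 and 56.3 FPKM in the Ins2-AKITA mice. Their group means were 53.8 ± 15.2 (SD, n = 3) and 57.4 ± 1.54 (SD, n = 2). The ratio of the C1q sum to the receptor sum was 3.05, 1.44 and 1.70 across WT replicates 1 to 3, and 1.47 and 1.26 across the Ins2-AKITA replicates. WT replicate 1 therefore stood apart by combining the highest C1q sum with the lowest receptor sum, and the ratios of the other 4 mice overlapped between genotypes.

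**Figure D2:**
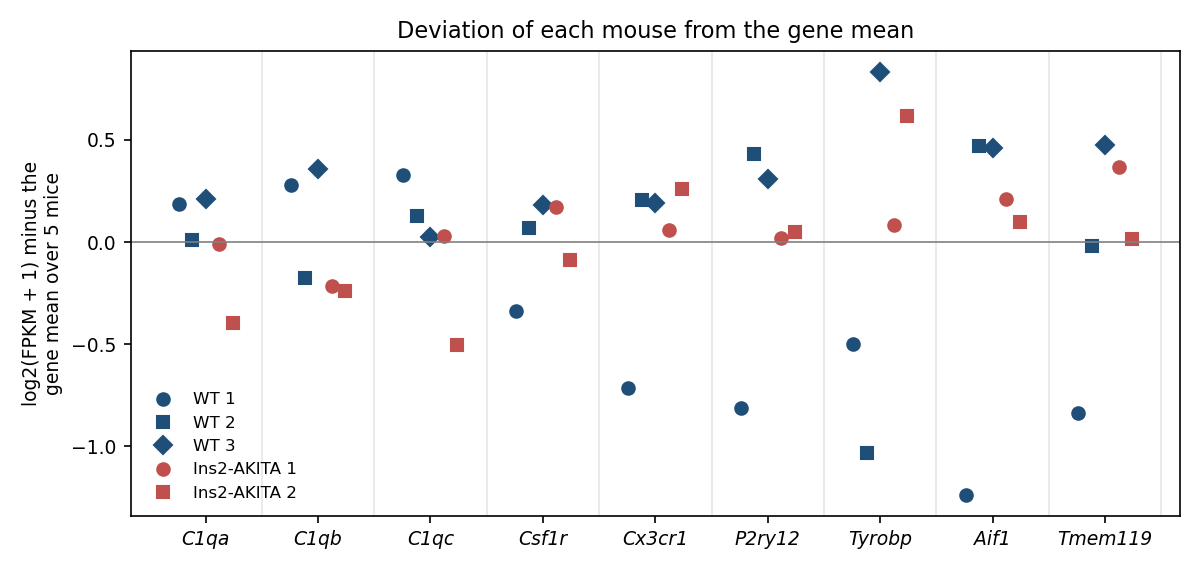
Deviation of each mouse from the gene's mean over the 5 mice on the log2(FPKM + 1) scale, for the 9 genes. WT replicate 1 (blue circles) lies above 0 for C1qa, C1qb and C1qc and below 0 for the other 6 genes, and Ins2-AKITA replicate 2 (red squares) is the lowest point for each C1q gene.

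Tyrobp (ENSMUSG00000030579, chr7:31198807-31202596, plus strand) encodes the membrane adaptor DAP12, which carries the signal of TREM2 and related receptors. It had 10.1, 6.67 and 27.0 FPKM in the WT mice and 15.7 and 23.1 FPKM in the Ins2-AKITA mice. The WT mice enclosed both Ins2-AKITA values and differed among themselves more than the groups did. The log2 difference was 0.59 (limma, SE 0.55, 95% interval -0.75 to 1.919, adjusted p = 0.902, exact permutation p = 0.6).

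Aif1 (ENSMUSG00000024397, chr17:35307936-35313013, minus strand) encodes IBA1, the actin-binding protein stained to show microglia in tissue sections. It had 1.91, 8.51 and 8.44 FPKM in the WT mice and 6.93 and 6.34 FPKM in the Ins2-AKITA mice. WT replicate 1 was the lowest mouse, and the Ins2-AKITA mice were below the other two WT mice. The log2 difference was 0.25 (limma, SE 0.57, 95% interval -1.13 to 1.63, adjusted p = 0.956, exact permutation p = 1).

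Tmem119 (ENSMUSG00000054675, chr5:114243738-114250525, minus strand) encodes a membrane protein that separates microglia from other macrophages. It had 3.82, 7.51 and 11.0 FPKM in the WT mice and 10.1 and 7.72 FPKM in the Ins2-AKITA mice. Both Ins2-AKITA values were inside the WT range. The log2 difference was 0.32 (limma, SE 0.43, 95% interval -0.71 to 1.35, adjusted p = 0.919, exact permutation p = 0.8).

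The precision of these values was limited by depth. The files list no counts, but low FPKM values corresponded to whole numbers of fragments, within 0.05 of a fragment, for 96.4% to 97.4% of the genes used, which put the depth between 1124593 and 1316046 fragments in 4 mice and at 2843259 in WT replicate 3. C1qa then rested on 25, 25 and 62 fragments in WT and on 21 and 18 fragments in Ins2-AKITA mice. For C1qb the numbers were 50, 41 and 129 against 34 and 38, and for Cx3cr1 they were 40, 90 and 192 against 69 and 91. The exact Poisson 95% interval of Cx3cr1 in WT replicate 1, 6.996 to 13.3 FPKM, did not reach those of WT replicate 2 (15.7 to 24.0) or 3 (16.6 to 22.2). The other genes lowest in that mouse have more than 1 transcript, and their intervals were approximated from the longest. That of P2ry12 (3.11 to 9.53 FPKM) also stayed below both. Those of Csf1r (17.3 to 25.4) and Tmem119 (1.75 to 7.26) overlapped WT replicate 2, and that of Aif1 (0.033 to 7.34) overlapped both.

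Tyrobp rested on 4, 3 and 26 fragments in WT and on 6 and 10 fragments in Ins2-AKITA mice. Its counting intervals ran from 1.37 to 19.5 FPKM in WT replicate 2 and from 11.1 to 42.4 FPKM in Ins2-AKITA replicate 2, so that the mice could hardly be ordered at this depth. Aif1 has 8 annotated transcripts, and its fragments could only be bounded from the longest of them. That bound was 1.45 fragments in WT replicate 1, which is under the limit of 3 fragments that a count of 0 allows, and 7.32, 15.6, 5.08 and 5.28 in the other mice. All these intervals cover counting error only.

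**Figure D3:**
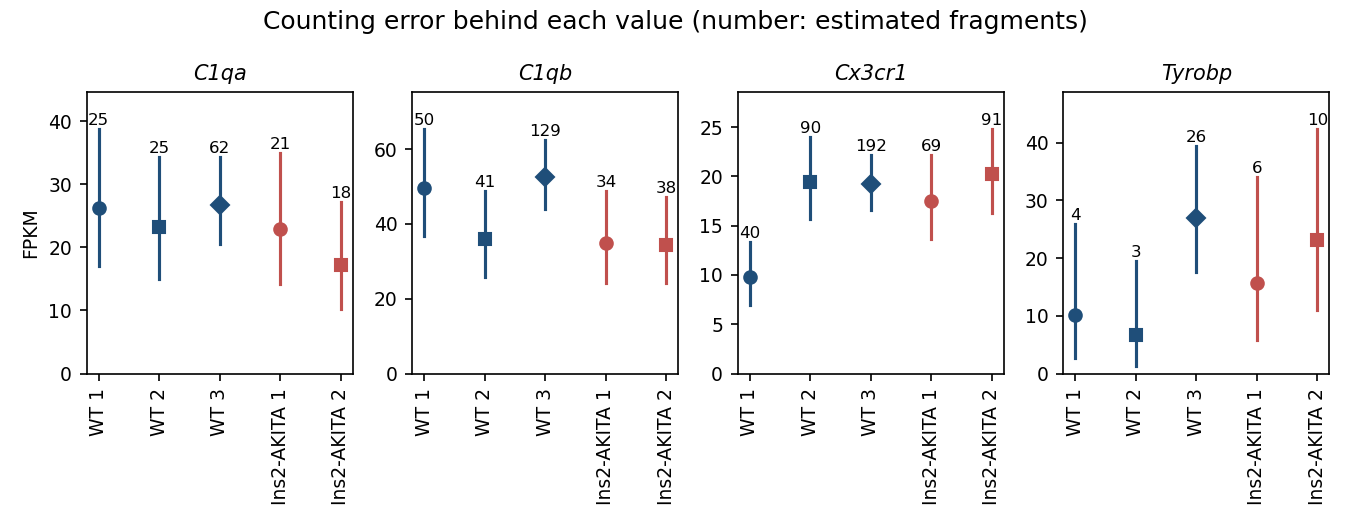
FPKM of C1qa, C1qb, Cx3cr1 and Tyrobp in each mouse, for the 4 member genes with 1 annotated transcript. Vertical lines are exact Poisson 95% intervals and the numbers above them are estimated fragments, from 3 for Tyrobp in WT replicate 2 to 192 for Cx3cr1 in WT replicate 3.

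Over all 16286 genes tested, the limma fit gave 0 calls (0%) upward and 4 calls (0.0246%) downward in Ins2-AKITA mice at an adjusted p under 0.05, and 726 genes (4.46%) had an unadjusted p under 0.05. Of the 9 members, 0 were called and 0 had an unadjusted p under 0.05. Both Ins2-AKITA values were below all WT values for 2 members, C1qa and C1qb, and above them for 0, against 10.3% and 9.24% of all genes tested. The difference was positive for 6 members and negative for 3, with a median of 0.07 on the log2 scale beside -0.03 over all genes. The 95% intervals of all 9 members included 0, and those of the C1q genes ended at 0.18 (C1qa), 0.16 (C1qb) and 0.18 (C1qc) on the upper side.

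Apart from Tyrobp, the direction of the non-C1q genes depended on WT replicate 1. Without it, the log2 difference became -0.083 for Csf1r, -0.040 for Cx3cr1, -0.33 for P2ry12, -0.31 for Aif1 and -0.036 for Tmem119, while Tyrobp stayed positive at 0.45. The C1q genes moved little, to -0.31 for C1qa, -0.32 for C1qb and -0.31 for C1qc. The difference was then negative for 8 of 9 members, with a median of -0.31 beside -0.01 over all genes. Adjusted p (limma) was 0.981 or higher for each member. In that fit both Ins2-AKITA mice were below both remaining WT mice for 4 members, C1qa, C1qb, P2ry12 and Aif1, against 15.0% of all genes, and above them for 0, against 14.6%. WT replicate 1 was the lowest mouse for 5 of the 9 members, so leaving it out lowered their differences by construction. It was lowest for 21.1% of all genes, so the values over all genes are not a like comparison.

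**Figure D4:**
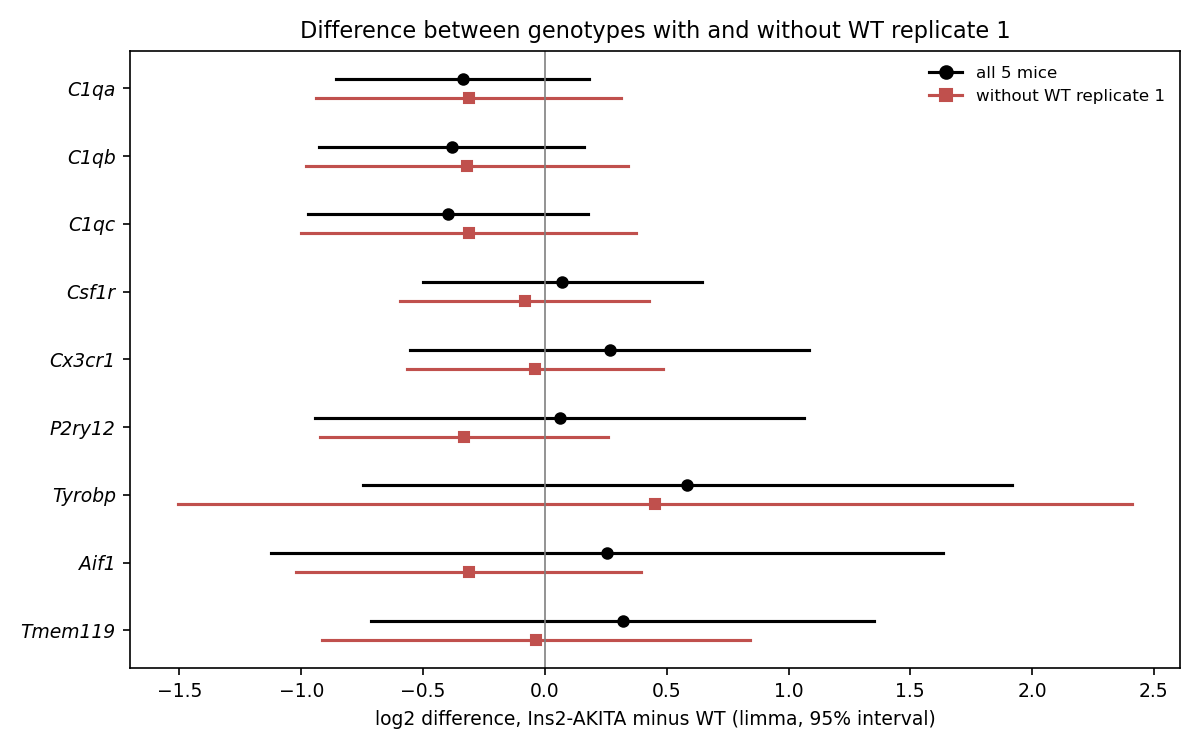
Difference between genotypes (Ins2-AKITA minus WT) on the log2(FPKM + 1) scale with its 95% interval from limma, for all 5 mice (black circles) and without WT replicate 1 (red squares). All intervals include 0. The points of Csf1r, Cx3cr1, P2ry12, Aif1 and Tmem119 move from above to below 0 when WT replicate 1 is left out, and those of C1qa, C1qb and C1qc stay between -0.40 and -0.31.

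Of 27 other genes that microglia express, 0 were called, with 13 positive and 14 negative differences and a median of -0.07. Without WT replicate 1 the differences were positive for 7 and negative for 20 of them, with a median of -0.17. Over all 16286 genes tested they were then positive for 7869 and negative for 8340, with a median of -0.01. Both Ins2-AKITA mice were below both remaining WT mice for 7 of the 27, against 15.0% of all genes, and above them for 2, against 14.6%. Here too the shift followed by construction wherever the mouse left out was the lowest, so the values over all genes are not a like comparison. WT replicate 1 had the lowest value for 16 of the 27 (59.3%) and for 5 of the 9 members (55.6%), beside 21.1% of all genes tested. This was not particular to microglia genes, since it was also lowest for 4 of 8 astrocyte and 3 of 7 oligodendrocyte markers. It was lowest for 2 of 10 endothelial, 0 of 7 pericyte and 0 of 7 neuron markers. Siglech, a sialic acid-binding receptor, had 5.28 FPKM in WT replicate 1 and 12.5 to 15.7 FPKM in the other 4 mice.

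Ctss, the lysosomal protease cathepsin S and the most abundant gene of the list, had 68.3 FPKM in WT replicate 1, again its lowest value, and 91.1 to 95.2 FPKM in the other mice. Cd68, a lysosomal membrane protein of phagocytes, was not low in that mouse and had 7.60 FPKM in WT replicate 1, 7.53 and 7.84 FPKM in the other WT mice, and 10.7 and 3.11 FPKM in the Ins2-AKITA mice. Hpgds, a prostaglandin D synthase, had the largest positive difference of the list, with 0.263, 2.94 and 3.13 FPKM in the WT mice and 3.65 and 3.87 FPKM in the Ins2-AKITA mice (0.80 on the log2 scale, limma adjusted p = 0.901). Ltc4s, which makes leukotriene C4, had the largest negative one, with 8.10, 7.44 and 3.32 FPKM in the WT mice and 5.18 FPKM in Ins2-AKITA replicate 2, and was listed at 0 in Ins2-AKITA replicate 1.

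The ligands and partners of the receptors were measured in the same libraries. Of these 12 genes 11 were tested and 0 were called, with 3 positive and 8 negative differences and a median of -0.09. Cx3cl1, the ligand of CX3CR1, had 78.7, 73.1 and 67.5 FPKM in the WT mice and 80.2 and 48.3 FPKM in the Ins2-AKITA mice. Csf1 had 14.2, 15.1 and 9.38 FPKM against 14.3 and 5.52 FPKM, and Il34, the other CSF1R ligand, had 8.38, 20.1 and 12.9 FPKM against 16.6 and 6.80 FPKM. For each of these 3 ligands Ins2-AKITA replicate 2 was the lowest mouse and Ins2-AKITA replicate 1 lay within or above the WT range.

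Trem2, the receptor that signals through TYROBP, had 6.98, 8.75 and 20.8 FPKM in the WT mice and 7.20 and 14.6 FPKM in the Ins2-AKITA mice. Its log2 difference was -0.08 (limma, SE 0.51, adjusted p = 0.987). WT replicate 3 was highest for both Trem2 and Tyrobp.

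Among 22 further genes of the complement system, 18 were tested and 0 were called. The difference was positive for 5 and negative for 13, with a median of -0.17. C1qbp, whose product was first described as a C1q-binding protein but sits mainly in mitochondria, was the most abundant, with 33.4, 26.3 and 21.8 FPKM in the WT mice and 29.0 and 25.5 FPKM in the Ins2-AKITA mice. C1ra, one of the proteases that join C1q in the C1 complex, had 2.30, 1.20 and 1.95 FPKM against 1.40 and 1.54 FPKM. C4b, the next component of the classical pathway, had 22.9, 12.8 and 12.6 FPKM against 12.7 and 14.8 FPKM. Neither C1ra nor C4b separated the genotypes.

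C3, the central component on which all complement pathways meet, had 0.523, 0.154 and 0.993 FPKM in the WT mice and 2.61 and 2.27 FPKM in the Ins2-AKITA mice. The estimated fragments were 3, 1 and 14 in the WT mice and 14 in each Ins2-AKITA mouse. Both Ins2-AKITA mice were above all WT mice, as for 9.24% of all genes tested, and the log2 difference was 1.18 (limma, SE 0.52, 95% interval -0.08 to 2.43, adjusted p = 0.896). C3 thus had the largest positive difference among the tested complement genes while the C1q genes had negative ones, and neither passed the threshold. With means of 0.557 FPKM in WT and 2.44 FPKM in Ins2-AKITA mice, C3 met the filter of 1 FPKM only through the Ins2-AKITA mice. Its rank therefore depends on the filter.

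C2, the protease that C1 cleaves together with C4, had the largest negative difference of the list. It had 3.49, 4.79 and 2.22 FPKM in the WT mice and was listed at 0 in both Ins2-AKITA mice (limma adjusted p = 0.876, unadjusted p = 0.0044). C2 in turn met the filter only through the WT mice. It overlaps Zbtb12 on the opposite strand and the annotated transcript Gm20547 on its own strand, and a listed 0 may stand for a value that could not be estimated. The genes Hc and Cfd were listed at 0 in all 5 mice.

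Of 22 genes linked to microglial activation, 14 were tested and 0 were called, with 10 positive and 4 negative differences and a median of 0.06. Apoe, a lipid carrier that astrocytes also make in quantity, was the most abundant at 1122 to 1381 FPKM, with no separation of the genotypes. Lpl, lipoprotein lipase, had 3.86, 3.96 and 3.58 FPKM in the WT mice and 7.16 and 5.49 FPKM in the Ins2-AKITA mice. Its log2 difference of 0.60 was the largest positive one of the list (limma, SE 0.30, adjusted p = 0.896). Cd14, a co-receptor for bacterial lipopolysaccharide, had 3.82, 2.25 and 2.87 FPKM against 0.659 and 1.74 FPKM, a log2 difference of -0.88 (limma, SE 0.45, adjusted p = 0.896). The cytokine genes Il1b and Il6 and the inhibitor gene Cst7 were listed at 0 in all 5 mice.

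Other macrophages and blood cells share part of the member genes. C1q, Csf1r, Tyrobp, Aif1 and Cx3cr1 are also expressed by perivascular macrophages, whereas P2ry12 and Tmem119 mark microglia more closely. Of 8 perivascular macrophage markers 4 were tested and 4 had a 0 in some mouse. Their sum was 13.8, 31.1 and 15.7 FPKM in the WT mice and 23.3 and 12.3 FPKM in the Ins2-AKITA mice. Mrc1, the mannose receptor, was at 1.44 to 3.63 FPKM, Cd163, a hemoglobin scavenger receptor, at 0.186 to 1.70 FPKM, and Stab1, a scavenger receptor and the highest of the list, at 7.47 to 13.6 FPKM. All 8 markers of blood leukocytes had a 0 in some mouse and 2 were at 0 in all, with sums of 0.708, 4.54 and 2.18 FPKM in the WT mice and 1.73 and 0 FPKM in the Ins2-AKITA mice. The part of these cells in the C1q levels was not tested.

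Markers of other cell types also differed in their means. Of 10 endothelial markers 9 had a negative difference, with a median of -0.43, and 0 were called. Their sum was 465, 683 and 417 FPKM in the WT mice and 423 and 346 FPKM in the Ins2-AKITA mice. Pecam1, the bead target, had 92.8, 91.0 and 65.8 FPKM against 63.1 and 58.3 FPKM, and Cdh5, an endothelial cadherin, had 32.3, 44.5 and 30.9 FPKM against 25.0 and 21.9 FPKM. The log2 differences of the 10 genes ran from -0.61 (Emcn) to 0.04 (Kdr), beside -0.40 to -0.34 for the C1q genes.

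All 8 astrocyte markers had a positive difference, with a median of 0.49 and 0 called. Their sum was 1660, 2099 and 2463 FPKM in the WT mice and 2828 and 3249 FPKM in the Ins2-AKITA mice, lowest in WT replicate 1. Aldh1l1, a folate enzyme used as a pan-astrocyte marker, had the largest difference, with 37.9, 28.5 and 41.6 FPKM against 75.3 and 72.1 FPKM (1.03 on the log2 scale, limma SE 0.22, adjusted p = 0.804). Of 5 erythroid markers all had a negative difference, with a median of -1.09, and their sum was 60.1, 67.7 and 35.1 FPKM against 32.4 and 25.1 FPKM. Of 7 pericyte markers 5 had a negative difference, with a median of -0.36 and 0 called. The median difference was 0.21 for neurons and -0.15 for oligodendrocytes. The sums for pericytes (171 to 246 FPKM), neurons (758 to 912 FPKM) and oligodendrocytes (1997 to 2656 FPKM) overlapped between genotypes, as did the endothelial sums. Neuronal and oligodendrocyte RNA was therefore abundant in every library. The part of this makeup in the levels of the member genes was not tested.

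**Figure D5:**
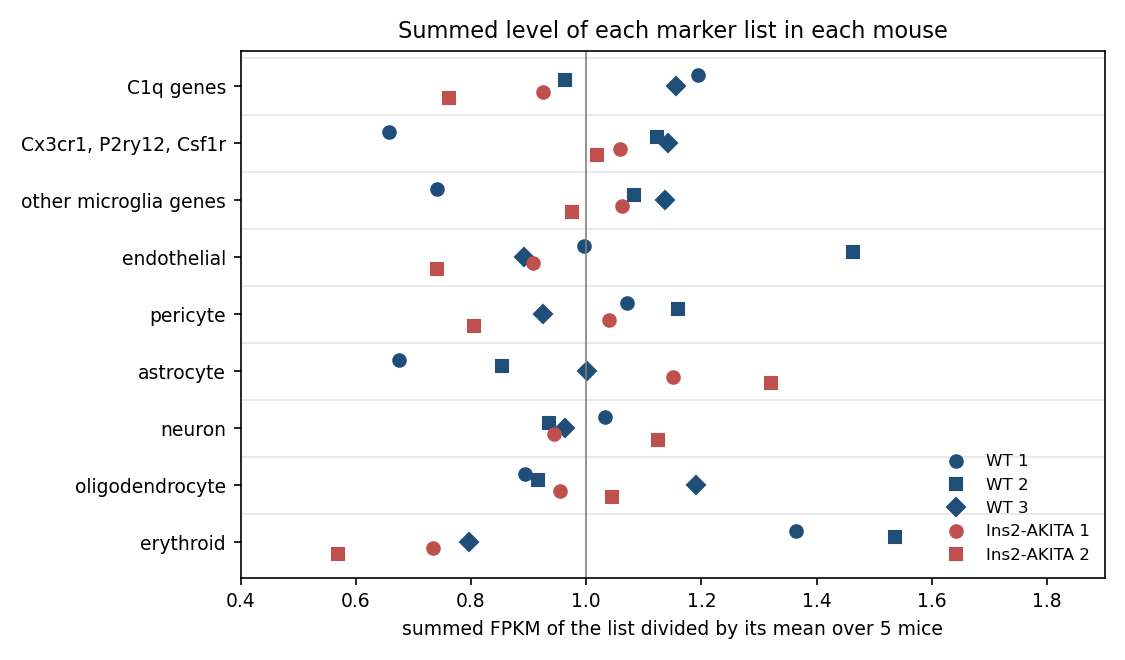
Summed FPKM of gene lists in each mouse, divided by the mean of that sum over the 5 mice. The 3 C1q genes are lowest in both Ins2-AKITA mice, the 3 receptors and the 27 other microglia genes are lowest in WT replicate 1, and the astrocyte list is highest in both Ins2-AKITA mice.

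The mean profile of the members over the 5 mice was followed most closely by genes from outside the microglia lists. Among 10463 other protein-coding genes with a mean of at least 5 FPKM, the smallest root-mean-square differences from it on the centred log2 scale were those of Rhobtb2 (0.049), Lbh (0.050), Enpp4 (0.050), Adk (0.053) and Mrps6 (0.054). The closest gene of the other microglia list, Ctss, ranked 104 with 0.116, ahead of Selplg at rank 144 and Laptm5 at rank 157. Among the members, Csf1r was nearest to the mean profile (0.094) and Tyrobp farthest from it (0.592), with the C1q genes at 0.32 to 0.42. The mean blends C1q genes with members that ran the other way in WT replicate 1. The ranking therefore does not show whether microglia genes varied together. A profile over only 5 mice is matched by many genes, and these distances are a description without a test. The mutated gene itself, Ins2, is used by beta cells and was listed at 0 in 4 mice and at 1.51 FPKM in WT replicate 3, so it could not check the genotype labels.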

How the data were processed

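RNA of brain microvascular fragments from 5 mice was sequenced, 1 library per mouse. The authors prepared stranded total RNA libraries after ribosomal RNA depletion, mapped reads to NCBIM37 with TopHat2 2.0.4, removed duplicates with Picard 1.92 and tested with Cufflinks 2.2.1, as their paper and the submitters' processing notes give. They deposited FPKM values per Ensembl gene and mouse. The program behind the single-mouse values was not given in the sources used here. Removing duplicates can lower abundant short genes.

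Here, 37197 of 37982 identifiers were matched to GENCODE vM1 of NCBIM37, and rows sharing a symbol were summed. Symbols averaging 1 FPKM or more were tested on log2(FPKM + 1) with limma 3.58.1 in R 4.3.3 (lmFit, eBayes with trend), with genotype as the only factor, two-sided, with Benjamini-Hochberg adjustment at 0.05. Fold changes on this scale understate changes of low genes. Exact permutation tests ran over the 10 splits of the mice. Fragments were estimated from the steps between low FPKM values in Python 3.11.15 with numpy, pandas and scipy, after taking 221.5 to 226.5 bases off each transcript length. The fit was tested on simulated data.

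The members, gene lists and tests were chosen with earlier results of these data known. All members were named, and from each list the most abundant gene, the genes with the highest and lowest log2 difference and a fixed set of ligands, partners and markers. Genes outside this rule (Hmgxb3, Med12l, Zbtb12, Gm20547, those at 0 in all mice, and the Ctss, Selplg and Laptm5 ranks) were named after their values were seen. Some single genes of the lists are not reported here. Alternative settings were no filter, a pseudocount of 0.1, a mean FPKM of at least 5, TPM, scaling to the protein-coding sum or by median ratios, quantile normalization, a constant prior, the highest row per symbol, a replicate block and each mouse left out. p-values measure the spread between these mice.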

Additional observations from a re-analysis of the deposited data

How the results depend on the processing

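No member gene passed an adjusted p of 0.05 under any of the alternatives, and 126 of 135 single-gene differences kept their direction. Part of that number was fixed in advance. The filters, the constant prior and the highest row per symbol left the members' differences as they were. The replicate block gave the same member differences as leaving out WT replicate 3. TPM raised the median of all genes from -0.03 to 1.07, because the FPKM sum differed between mice. The member median rose to 1.17, C1qa to 1.10, C1qb to 1.17 and C1qc to 1.10, near the median of all genes. A factor per mouse alone shifts every gene alike and cannot bring C1q closer to that median. The pseudocount of 1 was added after values were multiplied by 0.077 (WT replicate 1) to 0.653 (Ins2-AKITA replicate 2), which compresses differences. TPM also gave 58 genes higher and 30 lower, in place of 0 and 4. A constant prior gave 1 higher and 2 lower, and 2 were lower with no filter and with a mean FPKM of at least 5. With 1 mouse left out, between 0 and 10 genes were higher, the latter without Ins2-AKITA replicate 2, and between 1 and 6 lower. The cause of these changes in count was not tested. With 1 mouse left out, the log2 difference ranged from -0.083 to 0.20 for Csf1r, from -0.040 to 0.42 for Cx3cr1, from -0.33 to 0.29 for P2ry12, from -0.31 to 0.54 for Aif1 and from -0.036 to 0.62 for Tmem119, the lowest in each case without WT replicate 1, and Csf1r was also negative (-0.057) without Ins2-AKITA replicate 1. C1qa ranged from -0.53 to -0.14, C1qb from -0.55 to -0.28, C1qc from -0.66 to -0.13 and Tyrobp from 0.18 to 1.12, the highest without WT replicate 3 (limma adjusted p = 0.574). Leaving out an Ins2-AKITA mouse assumes that the lone one varies like the WT mice.

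The replicate numbers were not treated as pairs, since the labels give no pairing. Deviations of same-numbered mice from their genotype means correlated at 0.05 and -0.03 over genes. With 2 Ins2-AKITA mice these deviations mirror each other, so the correlations are not independent checks and cannot decide on pairing. With the replicate block, in which WT replicate 3 has no partner, the member median was 0.23, Tyrobp was at 1.12 and 0 members were called (lowest adjusted p = 0.603), and 1249 genes had an unadjusted p under 0.05 in place of 726.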
